A study of Mus musculus with 6 samples.

Results

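The genes described here are 10 enzymes that build and sulfate chondroitin sulfate, the glycosaminoglycan carried by aggrecan, in primary mouse chondrocytes with and without knockdown of Pkm. They were taken by name from the deposited table, which lists 55416 genes, and all 10 were found and had enough counts to be tested. The 6 libraries came from 3 cultures given a control siRNA (siNC) and 3 given an siRNA against Pkm2 (siPkm2), the kinase being a glycolytic enzyme that the study set out to examine in chondrocytes. The labels give the source as knee joints of neonatal mice, the genotype as WT for siNC, and growth in DMEM/F12 with FBS, whereas the supplementary methods describe adult mice. The labels call siPkm2 replicate 1 a PKM2 knockdown and name PKM3 and PKM4 for replicates 2 and 3, whose titles read siPKM2, and all 3 were taken as siPkm2. The supplement lists 3 siRNAs against Pkm2 and says that number 3 was chosen for the study, without naming the one in the sequenced cultures, so a single siRNA may stand for the knockdown. The sense strand of number 3 is shown as the one chosen for the study, and its use in the sequenced cultures is not stated. The 19 bases that match Pkm are in capitals and the overhang is in lower case.
siPkm2 #3: CAUGCUGUCUGGAGAAACAtt
These bases lie in the coding sequence of exon 8 of Pkm, at chr9:59672010-59672028 on GRCm38, plus strand, in both Pkm-201 and Pkm-202 of GENCODE M21. The supplement names a different exon as the one specific to the PKM2 isoform. The same 19 bases also occur in annotated transcripts of Gm5216 and Gm6560. The labels mention no cytokine, and the cells were sequenced in bulk.

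Chondroitin sulfate is built in the Golgi on a serine of a core protein. Xylosyltransferases (Xylt1, Xylt2) attach the first sugar, and after a short linker has been made, Csgalnact1 and Csgalnact2 add the first N-acetylgalactosamine, which commits the chain to chondroitin. Chsy1 and Chsy3, working with Chpf, then extend the chain by alternating glucuronic acid and N-acetylgalactosamine. Chst11 places sulfate on carbon 4 and Chst3 on carbon 6 of N-acetylgalactosamine, and Papss2 makes the sulfate donor that both use. In cartilage these charged chains hold water, and human and mouse mutations in several of the genes disturb skeletal growth.

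Most of the 10 genes varied far more between the replicate numbers than between siNC and siPkm2. Xylt1 and Chpf rose in siPkm2, by a fold of 1.60 and 1.54, once the libraries were compared within replicate pairs. No member passed as lower, though Csgalnact2 was lower in every pair. Without the pairing, 0 of the 10 genes passed. The level of a gene is given as CPM, counts scaled to library size with the TMM factors of edgeR, and a gene passed at an adjusted p under 0.05 over all 15269 genes tested, with edgeR's quasi-likelihood test and Benjamini-Hochberg adjustment. Without the replicate number as a block, 0 of 15269 genes passed (0%), 2690 had an unadjusted p under 0.05, and 1159 passed by DESeq2's Wald test. Of the members, 0 passed by either tool and 1, Chpf, had an unadjusted p under 0.05. With it, 3524 genes passed (23.1%): siPkm2 was the higher group for 1874 (12.3%) and the lower for 1650 (10.8%). When pair 1 was left out of the blocked fit, 0 genes passed and 3937 had an unadjusted p under 0.05, 2 of them members. When pair 3 was left out, 0 passed and 3598 had such a p, 3 of them members. The 2 of 10 members, both higher, are thus a share near that of all genes. At a fold over 2, the threshold of the study, 890 genes passed with the block (5.83%) and 0 of the 10 members did. The median log2 fold change of the members was 0.10 without and 0.09 with the block, against -0.02 and -0.01 over all genes tested.

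Facts of the whole series bear on every value below. Total counts lay between 22317065 and 25691096 per library. In siNC, Pkm, the target, had 2335, 2746 and 1674 CPM, in the order of replicates 1 to 3 used throughout. The siPkm2 libraries had 336, 541 and 309 CPM, a log2 change of -2.53 with the block (adjusted p = 0.00932) and -2.51 without it (adjusted p = 0.0738). Both libraries numbered 2 stood apart. Their summed TPM over 12 chondrocyte markers was 4429 in siNC and 5935 in siPkm2, against 17463 to 21990 in the other 4 libraries. Col2a1, the collagen that defines cartilage, was at 3015 and 3847 TPM in the libraries numbered 2 and at 8902 to 11904 TPM elsewhere. Acan, which encodes aggrecan, was at 66.7 and 129 TPM in the libraries numbered 2 and at 655 to 873 TPM elsewhere. Sox9, the transcription factor of the chondrocyte lineage, was at 34.6 and 51.3 TPM in the libraries numbered 2 and at 53.9 to 102 TPM elsewhere. Col2a1, Acan and Sox9 were thus detected in all 6 libraries but lowest in those numbered 2. The sum over 7 macrophage markers was 99.1 and 58.8 TPM in the libraries numbered 2, almost wholly from Cd68, and 10.2 to 20.7 TPM in the others, while Ptprc was at or under 0.03 TPM in every library. The 7 synovial fibroblast markers summed to 1074 to 2733 TPM and the 6 osteoblast markers to 31.4 to 320.0 TPM, lowest in both libraries numbered 2. The 6 endothelial markers summed to at most 1.07 TPM and the 6 muscle markers to at most 10.9 TPM. The 10 interferon-stimulated genes summed to 47.0, 2443 and 83.0 TPM in siNC and to 1490, 4427 and 1070 TPM in siPkm2. Their part in the results below was not tested. In bulk libraries, fewer cells of a type and less RNA per cell cannot be told apart.

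Xylt1, which starts the chain, lies on chromosome 7 from 117380979 to 117673580 on GRCm38, plus strand. The siNC libraries held 229, 111 and 262 CPM of it and the siPkm2 libraries 427, 154 and 414 CPM. Each siPkm2 library was above the siNC library of its number, but the groups overlapped, because siPkm2 replicate 2 lay below siNC replicates 1 and 3. Within pairs 1, 2 and 3 the log2 difference was 0.90, 0.46 and 0.66. Without the block this came to 0.72 on the log2 scale (standard error 0.48, adjusted p = 0.483), and with it to 0.67 (standard error 0.11, adjusted p = 0.0181). With the block, the call was lost without pair 1 (0.56, adjusted p = 0.104) and without pair 3 (0.68, adjusted p = 0.122). Without both libraries numbered 2, the blocked value was 0.77 (adjusted p = 0.00164), in a fit where 39.1% of 15185 genes passed.

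Xylt2, the second xylosyltransferase, lies on chromosome 11 from 94663851 to 94677515, minus strand. It was at 39.0, 50.4 and 45.9 CPM in siNC and at 40.8, 60.6 and 42.9 CPM in siPkm2. Here the libraries numbered 2 were the highest of their group, the reverse of Xylt1, and the groups overlapped. With the block, siPkm2 differed by 0.08 on the log2 scale (standard error 0.10, adjusted p = 0.591), with 2 of 3 pairs higher in siPkm2.

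Chpf, the polymerizing factor that makes chain extension by the Chsy enzymes efficient, lies on chromosome 1 from 75474569 to 75479307, minus strand. It was at 83.6, 60.5 and 99.6 CPM in siNC and at 121, 109 and 138 CPM in siPkm2. All siPkm2 libraries lay above all siNC libraries, as was the case, in either direction, for 24.3% of all genes tested. The pair differences were 0.53, 0.85 and 0.47 on the log2 scale. On the log2 scale, siPkm2 differed by 0.60 (standard error 0.21, adjusted p = 0.227) without and by 0.62 (standard error 0.10, adjusted p = 0.0184) with the block, and by 0.49 (adjusted p = 0.0042) with the block and without the libraries numbered 2. The blocked call was lost without pair 1 (0.66, adjusted p = 0.0934) and without pair 3 (0.69, adjusted p = 0.106). The deposited counts of Chpf were fractional in all 6 libraries, those of Csgalnact2 in 3, and those of Chsy1 and Papss2 in 1 each. The source of the fractions is not given in the sources used here.

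Csgalnact2, one of the committing transferases, lies on chromosome 6 from 118107452 to 118139140, minus strand. It was at 48.7, 49.3 and 45.8 CPM in siNC and at 40.5, 40.6 and 41.4 CPM in siPkm2. This was the steadiest of the 10 genes, with an SD of 1.89 CPM in siNC and 0.49 CPM in siPkm2 (n = 3 each), and the groups did not overlap. The pair differences were -0.27, -0.28 and -0.14 on the log2 scale. With the block its log2 fold change of -0.23 (standard error 0.08) did not pass (adjusted p = 0.0961), nor did it without the block (adjusted p = 0.347).

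Chpf and Csgalnact2 were the only members whose siNC and siPkm2 libraries did not overlap, 1 higher and 1 lower in siPkm2. That is 20% of the members, against 24.3% of all genes tested. The promoter windows of Chpf and Csgalnact2, chosen after the values were seen, are printed to show that both start in GC-rich sequence. Each window runs from 250 bases before to 50 bases after the RefSeq start on GRCm38.p6, 5′ to 3′ on the gene's strand, and capitals mark the GC box GGGCGG or its complement. The Chpf window, chr1:75479422-75479721, minus strand, holds 2 GC boxes and 71.7% G and C, and the first of 2 Csgalnact2 windows, chr6:118139091-118139390, minus strand, holds 4 and 67.0%. The second Csgalnact2 window, not printed, holds 0 GC boxes and 67.3% G and C.
Chpf: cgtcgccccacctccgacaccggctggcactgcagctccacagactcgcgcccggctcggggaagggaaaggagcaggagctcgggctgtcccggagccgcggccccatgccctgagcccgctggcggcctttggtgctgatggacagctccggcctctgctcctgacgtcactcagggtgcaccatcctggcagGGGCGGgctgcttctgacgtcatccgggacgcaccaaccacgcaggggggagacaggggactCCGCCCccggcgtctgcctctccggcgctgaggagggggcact
Csgalnact2: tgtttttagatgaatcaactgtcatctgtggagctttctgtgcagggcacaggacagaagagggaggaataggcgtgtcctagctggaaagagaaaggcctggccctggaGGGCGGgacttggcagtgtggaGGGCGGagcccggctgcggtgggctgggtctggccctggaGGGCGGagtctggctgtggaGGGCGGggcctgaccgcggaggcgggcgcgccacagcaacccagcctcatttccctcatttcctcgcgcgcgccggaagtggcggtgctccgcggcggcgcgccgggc
RefSeq windows of 7 of the 10 genes were used, 9 windows in all. No windows of Xylt1, Csgalnact1 or Chsy3 were included, so the shares below do not cover these genes. Of these 9 windows 7 held a GC box, as did 35.7% of the 32851 windows of all genes. A hypoxia core (ACGTG or GCGTG, either strand) was in 8 of the 9, against 43.8% of all windows. Those 8 held 65.3% to 71.7% G and C, and the window without it, a second one of Papss2, held 44.3%. The windows of all genes were not matched for G and C, and the part of G and C in these shares was not tested. The letters ACAAAG or ACAATG, which SOX factors can bind, stood in 2 of the 9, those of Chst3 and Xylt2, against 28.6% of all windows, and CCAAT in 2 of the 9 against 37.4%. Matches of different motifs may overlap, and they are matches of letters, not measured binding.

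Csgalnact1 (chromosome 8, 68356781 to 68735146, minus strand) is the partner of Csgalnact2 and is needed for normal cartilage chondroitin sulfate in mice. Its levels were 160.2, 97.6 and 139 CPM in siNC and 154, 94.5 and 173 CPM in siPkm2. Replicate 2 was lowest in both groups, and only pair 3 was higher in siPkm2. With the block it differed by 0.07 on the log2 scale (standard error 0.11, adjusted p = 0.650). Annotated antisense genes overlap Csgalnact1, Chsy1 and Chst11. Since the sources used here do not say whether counting used strand, reads of these genes and their antisense partners may not have been told apart. Annotated genes on the same strand overlap Xylt1 (Gm45153), Csgalnact2 (Gm23908, a snoRNA) and Chst3 (Gm22117, a miRNA), and strand would not separate their reads.

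Chsy1 (chromosome 7, 66109515 to 66173798, plus strand) carries both transferase activities of chain extension. It was at 126, 41.1 and 121 CPM in siNC and at 118, 61.5 and 104 CPM in siPkm2. Its pairs went opposite ways, with log2 differences of -0.09 and -0.22 in pairs 1 and 3 and 0.58 in pair 2. The blocked value was 0.08 (standard error 0.17, adjusted p = 0.741). Chsy3 (chromosome 18, 59175401 to 59535999, plus strand), its homologue, was at 16.1, 6.07 and 20.0 CPM in siNC and at 22.7, 9.38 and 20.7 CPM in siPkm2. All 3 pairs of Chsy3 were higher in siPkm2, by 0.50, 0.63 and 0.05 on the log2 scale, and the blocked value of 0.38 (standard error 0.15) did not pass (adjusted p = 0.116).

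Chst11 (chromosome 10, 82985498 to 83195900, plus strand), the 4-O-sulfotransferase, was at 236, 108 and 242 CPM in siNC and at 286, 128 and 284 CPM in siPkm2. Its pairs were the most even of the family, with log2 differences of 0.28, 0.24 and 0.23, although the groups overlapped. The blocked log2 fold change of 0.25 (standard error 0.08) did not pass (adjusted p = 0.0744), and without the libraries numbered 2 it was 0.24 (adjusted p = 0.0572). Chst3 (chromosome 10, 60181532 to 60219260, minus strand), the 6-O-sulfotransferase, was low throughout, at 12.6, 16.1 and 10.6 CPM in siNC and at 18.9, 12.8 and 10.9 CPM in siPkm2. Its pair differences ran from -0.33 to 0.58 on the log2 scale, and its blocked value was 0.09 (standard error 0.20, adjusted p = 0.751).

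Papss2 (chromosome 19, 32595790 to 32667187, plus strand), which makes the sulfate donor, was at 293, 113 and 242 CPM in siNC and at 346, 75.4 and 258 CPM in siPkm2. Replicate 2 was again lowest in both groups. Papss2 was higher in siPkm2 in pairs 1 and 3, by 0.24 and 0.09 on the log2 scale, and lower in pair 2, by -0.58. The log2 fold change was 0.07 without and -0.08 with the block (adjusted p = 0.969 and 0.755).

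**Figure D1:**
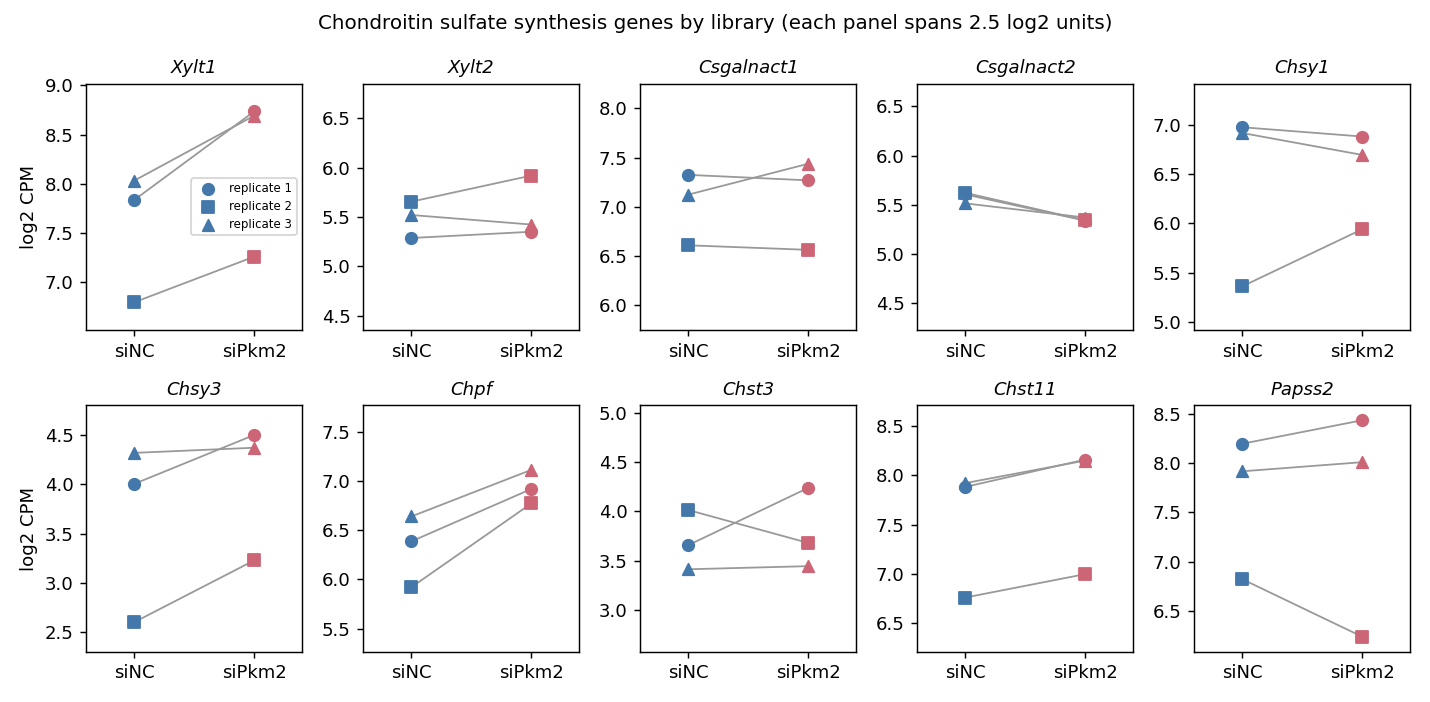
Level of each gene in log2 CPM (y axis) in the 3 siNC and 3 siPkm2 libraries (x axis), with a grey line joining the libraries of 1 replicate number and a marker shape for each number. Squares, replicate 2, sit well below the other libraries for Xylt1, Csgalnact1, Chsy1, Chsy3, Chst11 and Papss2, while Csgalnact2 shows almost no spread within a group.

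**Figure D2:**
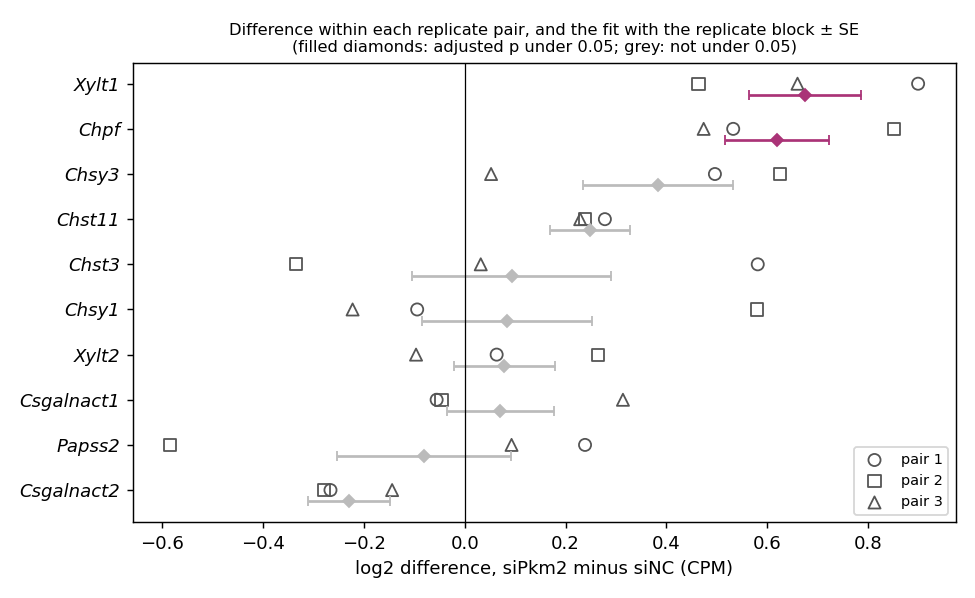
Log2 difference in CPM between siPkm2 and siNC (x axis) for each gene (y axis), as open symbols for the 3 replicate pairs and as diamonds with bars of 1 standard error for the fit with the replicate block. Xylt1 at 0.67 and Chpf at 0.62 passed at an adjusted p under 0.05, and the pairs of Chst3, Chsy1, Xylt2, Csgalnact1 and Papss2 fall on both sides of 0.

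Of the variance of log2 CPM over the 6 libraries, the replicate number held a median of 86.7% over the members and the siRNA group 4.14%, against 56.3% and 24.6% over all genes tested. The replicate number held more than the siRNA in 8 of the 10 genes, and in 65.4% of all genes tested. It has more levels than the siRNA group, so a larger share is expected for it even where neither has an effect. Chst11 was the extreme, with 95.0% for the replicate number, 4.98% for the siRNA and 0.037% for the rest. The exceptions were Csgalnact2, with 91.6% for the siRNA and 1.96% for the replicate number, and Chpf, with 64.0% and 31.4%. Of the members, 5 of 10 went the same way in all 3 pairs, and 61.1% of all genes tested did so. In siNC, replicate 2 lay below the mean of replicates 1 and 3 by a log2 difference of -1.58 for Chsy1, -1.56 for Chsy3, -1.24 for Papss2, -1.14 for Chst11, -1.14 for Xylt1, -0.61 for Csgalnact1 and -0.59 for Chpf. In siPkm2 the same 7 genes were lower in replicate 2, from -1.99 for Papss2 to -0.24 for Chpf. Xylt2 was higher in replicate 2 in both groups, by 0.25 and 0.53. The median over the members was -0.88 in siNC and -0.82 in siPkm2, against -0.03 and 0.00457 over all genes tested. The chondrocyte markers moved with them, at medians of -2.91 and -1.99, and the part of that loss in the levels of the enzymes was not tested.

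**Figure D3:**
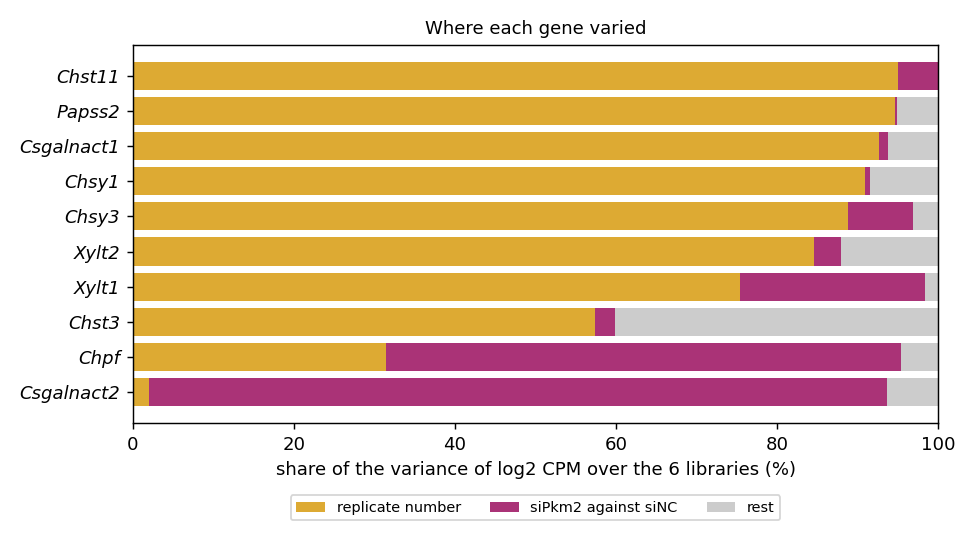
Share of the variance of log2 CPM over the 6 libraries, in percent (x axis), that lay between replicate numbers, between siPkm2 and siNC, and in the rest, for each gene (y axis). The replicate number takes 75.4% or more in 7 genes, and the siRNA takes most in Chpf and Csgalnact2.

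Levels of different genes were compared in TPM, the authors' values per transcript length. In siNC, Papss2 was highest, at 124 ± 46.5 TPM (SD, n = 3), and Chst3 lowest, at 2.96 ± 0.57 TPM (SD, n = 3). Between them came Csgalnact1, Chst11, Chpf, Chsy1, Xylt1, Xylt2 and Csgalnact2, from 57.4 to 21.5 TPM, where no neighbours differed by more than the larger of their SDs. Chsy3 followed at 6.16 ± 3.17 TPM (SD, n = 3), below Csgalnact2 by more than the spread. In siPkm2 the first 6 were Papss2 at 127 ± 74.5 TPM, Chpf at 69.5 ± 7.68, Chst11 at 62.7 ± 23.1, Csgalnact1 at 58.9 ± 15.4, Xylt1 at 56.1 ± 25.02 and Chsy1 at 41.4 ± 11.6 TPM (SD, n = 3), and no neighbours among these differed beyond the larger SD. From Chsy1 down, each step to Xylt2, Csgalnact2, Chsy3 and Chst3 exceeded it. Summed over the 10 genes, the level was 469, 286 and 497 TPM in siNC replicates 1, 2 and 3 and 565, 299.9 and 543 TPM in siPkm2, so that each siPkm2 library was above the siNC library of its number and both libraries numbered 2 were the lowest.

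Of the steps above, 3 are shared by a pair of isoenzymes, and their ratio within a library does not depend on the scaling between libraries. Xylt1 exceeded Xylt2 by a TPM ratio of 1.85 and 1.90 in siNC replicates 1 and 3 and by 3.46 and 3.17 in siPkm2 replicates 1 and 3. In the libraries numbered 2 the order was turned, with a ratio of 0.702 in siNC and 0.835 in siPkm2. The log2 ratio was higher in siPkm2 in all 3 pairs, by 0.91, 0.25 and 0.74, with a mean of 0.63 ± 0.34 (SD, n = 3 pairs). An exact two-sided permutation test over the 6 libraries gave p = 0.5 (adjusted p = 0.5 over 3 ratios), and its smallest p is 0.1. The exact paired permutation test, added after the data were seen, gave p = 0.25 for each of the 3 ratios (adjusted p = 0.25), which is the smallest that 3 pairs allow, so neither test could pass. Csgalnact1 exceeded Csgalnact2 in every library, by a ratio of 1.94 to 4.03, and the log2 ratio was higher in siPkm2 in every pair, by 0.20, 0.24 and 0.43 (mean 0.29 ± 0.12, SD, n = 3 pairs, p = 0.5, adjusted p = 0.5, exact permutation test over 6 libraries). Chsy1 was far above Chsy3, by a ratio of 8.24, 6.97 and 6.14 in siNC replicates 1, 2 and 3 and of 5.34, 6.66 and 5.15 in siPkm2. That log2 ratio was lower in siPkm2 in every pair, by -0.62, -0.07 and -0.25 (mean -0.31 ± 0.28, SD, n = 3 pairs, p = 0.2, adjusted p = 0.5, exact permutation test over 6 libraries).

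**Figure D4:**
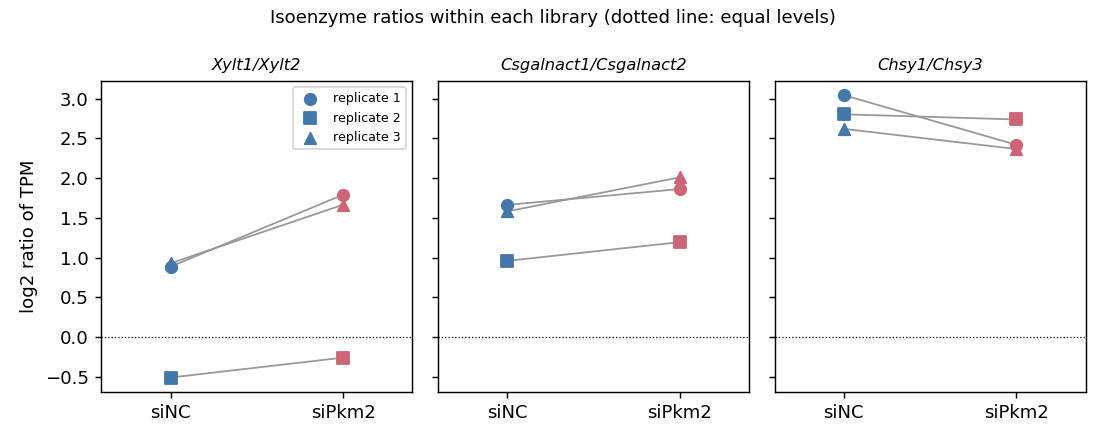
Log2 ratio of TPM between the isoenzymes of 3 steps (y axis) in siNC and siPkm2 libraries (x axis), with lines joining libraries of 1 replicate number and the dotted line at equal levels. Xylt1 lies above Xylt2 except in both libraries numbered 2, and Chsy1 lies above Chsy3 in all 6 libraries.

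The profile of Xylt1, the member with the smallest p under the block, was compared with that of all genes tested over the 6 libraries, as the root mean square difference of log2 CPM after centring each gene. The nearest were Tmem238 at 0.087, Meltf at 0.14 and Fry at 0.15 log2 units.

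Other genes of glycosaminoglycan metabolism were read from lists, with the replicate block, because by edgeR's test 0 genes of these lists passed without it. Of 13 tested genes of the linker and of other chondroitin and dermatan steps, 2 rose and 2 fell. B4galt7, which adds the first galactose of the linker, rose by 0.71 on the log2 scale (adjusted p = 0.0226), and Chpf2, a homologue of Chpf, by 0.56 (adjusted p = 0.0225). Fam20b, the kinase that phosphorylates the linker xylose, was lower at -0.75 (adjusted p = 0.0141), and Chst14, the dermatan 4-O-sulfotransferase, at -1.12 (adjusted p = 0.011). Their list had a median log2 fold change of -0.16.

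Among 16 genes of precursor and sulfate supply, 3 rose and 1 fell, with a median of 0.14. Slc26a2, the sulfate transporter whose loss causes chondrodysplasia, rose by 1.07 (adjusted p = 0.00942), with 80.0 ± 48.2 CPM in siNC and 170.2 ± 107 CPM in siPkm2 (SD, n = 3). Uap1, which makes UDP-N-acetylhexosamines, rose by 0.90 (adjusted p = 0.0133), and Ugp2, which makes UDP-glucose, by 0.30 (adjusted p = 0.0429). Uxs1, which makes the UDP-xylose that Xylt1 and Xylt2 use, was lower at -0.90 (adjusted p = 0.0133).

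The 17 tested genes of heparan sulfate synthesis and editing, the other chain built on the same linker, gave 5 that rose and 2 that fell, with a median of -0.13. Examples were the sulfatase Sulf1 at 1.62 (adjusted p = 0.0119), the N-sulfotransferase Ndst1 at 1.06 (adjusted p = 0.0128), Hs2st1 at 0.66 (adjusted p = 0.0119) and Extl3 at 0.60 (adjusted p = 0.0141), and Hs6st2 at -0.91 (adjusted p = 0.0109). Of 11 tested genes for breakdown, 3 rose and 5 fell, with a median of -0.45. Gusb, a lysosomal enzyme, rose by 0.69 (adjusted p = 0.0158), whereas Cemip and Hyal2, which act on hyaluronan, and Hyal1 had log2 fold changes of -1.32, -0.86 and -0.52 (adjusted p = 0.0119, 0.0175 and 0.0183).

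Of 11 tested core proteins that can carry the chain, 4 rose and 1 fell, with a median of 0.58. Srgn rose by 2.25 (adjusted p = 0.00942), from 2.74 to 12.8 CPM, Vcan by 1.57 (adjusted p = 0.0109), Epyc by 1.30 (adjusted p = 0.00942) and Dcn by 1.28 (adjusted p = 0.0148), while Bgn was lower at -0.85 (adjusted p = 0.0182). Acan, the main carrier in cartilage, was at 2566, 233 and 2617 CPM in siNC and at 3376, 470.4 and 3323 CPM in siPkm2, with a blocked value of 0.58 that did not pass (adjusted p = 0.0567). Beside these, 23.1% of all genes tested passed with the block. With pair 1 or pair 3 left out of the blocked fit, 0 genes passed, so every call in these lists was lost. Without the libraries numbered 2, a setting added after the data were seen in which 39.1% of all genes tested passed, the counts of genes that rose and fell were 2 and 2 for the linker list, 6 and 2 for supply, 5 and 4 for heparan sulfate, 3 and 6 for breakdown and 6 and 1 for core proteins.

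**Figure D5:**
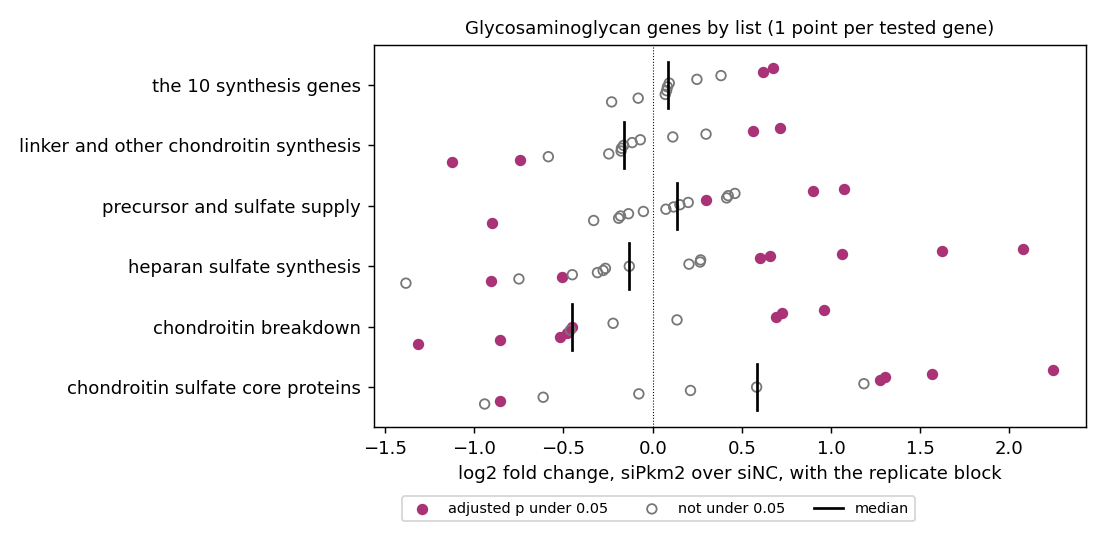
Log2 fold change of siPkm2 over siNC with the replicate block (x axis) for each tested gene of 6 lists (y axis), filled where the adjusted p was under 0.05, with a black bar at the list's median. The 10 synthesis genes keep within -0.23 and 0.67, a narrower range than the other lists, where single genes run from -1.38 to 2.25. A range widens with list size and with low counts. The other lists are longer, and the genes at these ends, Hs3st3a1 and Srgn, had means of 1.08 and 2.74 CPM in siNC.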

How the data were processed

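RNA of 3 siNC and 3 siPkm2 cultures was sequenced by standard Illumina protocols. The authors deposited estimated counts per gene, not normalized and partly fractional, and TPM values scaled within each library, which the 6 single-library files repeat. The submitters' processing notes name mm9 and edgeR, and the aligner and counter are not given in the sources used here. The deposited fold changes and p-values of the authors' own comparison were not used. Positions come from GENCODE M21 on GRCm38, in which 94.0% of the 55416 identifiers occur, and Impad1 was matched through its RefSeq synonym Bpnt2.

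Counts were rounded and filtered by filterByExpr, which left 15269 genes, and tested by edgeR 4.0.16's quasi-likelihood test in R 4.3.3 with TMM factors and Benjamini-Hochberg adjustment. The standard error was taken from the fold change and its F. The scripts were tested on simulated data. The alternatives included limma 3.58.1 on log2(TPM + a pseudocount of 1 or 0.1), with the fold change on that scale, and DESeq2 1.42.0. Replicate numbers, which the labels give without saying what they stand for, were used to pair the libraries. Deviations from the group means correlated at 0.62, 0.73 and 0.60 across genes for equal numbers and at 0.13 or below for different ones. These deviations cancel out within a group, so high correlations for equal numbers push the others down by construction. Within a group, 52.6% to 73.4% of genes differed beyond sampling noise, so no library was a duplicate. Whether the cultures came from separate animals is not stated. Without the block, p-values measure the spread between these samples. With it, they measure only the spread left after the replicate number is taken out. All 10 members are named, and of the other lists at most 5 genes with the smallest p among those that passed with the block, except 1 that is not reported here. Members and lists were chosen with earlier results of these data known.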

Additional observations from a re-analysis of the deposited data

How the results depend on the processing

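Without the replicate block, 0 genes passed, against 3524 with it, 890 with it at a fold over 2, 5941 with it and without replicate 2, and 0 with it and without replicate 1 or replicate 3. Other settings gave 3 genes with upper-quartile factors, 9 with no low count filter, 3 with at least 10 counts in every library, 1 with limma at either pseudocount, 1159 with DESeq2 and 3958 with DESeq2 and the block. Leaving out single libraries without the block gave 0 to 105, the 105 without siNC replicate 2. Of the members, 2 (Xylt1 and Chpf) passed with the replicate block, with DESeq2 and the block, and with the block without replicate 2, and 0 under the other settings. The members' median log2 fold change ran from -0.036 without siNC replicate 2 to 0.40 without siPkm2 replicate 2, against 0.10. Signs turned for single genes that did not pass. Chsy1 was at 0.083 with the block, 0.086 with DESeq2 and the block, 0.038 and 0.042 with limma at a pseudocount of 1 and 0.1, and 0.18 and 0.24 with the block without replicates 1 and 3. Papss2 was at -0.081, -0.080, -0.13, -0.13, -0.24 and -0.17 under the same settings and at -0.0034 with upper-quartile factors. Xylt2 was at -0.011 and -0.012 with limma and at -0.026 with the block without replicate 2, Chst3 at -0.16 with the block without replicate 1, and Csgalnact1 at -0.049 with the block without replicate 3. Leaving out single libraries moved Xylt2 from -0.10 to 0.20, Csgalnact1 from -0.089 to 0.31, Chsy1 from -0.39 to 0.23, Chsy3 from -0.034 to 0.67, Chst3 from -0.15 to 0.29, Chst11 from -0.038 to 0.55 and Papss2 from -0.38 to 0.49. It moved Xylt1 from 0.44 to 1.07, Chpf from 0.43 to 0.77 and Csgalnact2 from -0.26 to -0.21, and these 3 kept their sign under every setting run. The log2 difference in the ratio moved from 0.16 to 1.29 for Xylt1/Xylt2, from 0.067 to 0.54 for Csgalnact1/Csgalnact2 and from -0.43 to -0.20 for Chsy1/Chsy3. The cause of these changes was not tested. Precision is limited by 3 cultures a group and, for steady genes such as Csgalnact2, also by counting error.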
